A study of Drosophila melanogaster with 28 samples.

Results

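*CG8086* (FBgn0032010) and *CG14995* (FBgn0035497) are the 2 genes for which the study's lists combine transcripts of the male germline with opposite effects of the loss of *doublesex* (*dsx*) in XX and XY animals. They are represented by 3 of the 15744 array elements, DAC026F20 for *CG8086* and DAC024G24 and DAC008H15 for *CG14995*, and all 3 are among the 671 elements of the study's male germline list. *CG8086* lies on chromosome arm 2L, between *CG43057* and *Btk*, and has 12 RefSeq transcripts. *CG14995* lies on arm 3L, has 7 RefSeq transcripts, overlaps *CG14990* and is followed by *Fit1*. Both are known here by their annotation symbols alone. The study put *CG8086* and the DAC024G24 element of *CG14995* in its set of transcripts regulated by *dsx*, whereas DAC008H15 is not in that set and was taken up because it represents the same gene. That set was selected on the sex difference in wild type and *tud* progeny, on the *dsxD* pseudomale comparison and, for the opposite effects, on both *dsx* null comparisons, so these values are described without a test.

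In Drosophila, *transformer* (*tra*) is active in XX animals, where it directs the splicing of *dsx* pre-mRNA to the form that encodes the female protein. Without *tra* activity the male protein is made, and either DSX protein can raise or lower transcript levels of genes in somatic tissues. Germ cells take their sex partly from the soma that surrounds them, and at the middle of pupal development the testis holds spermatocytes and spermatids, whose transcripts are largely absent from ovaries. A male-biased transcript in whole pupae can therefore stem from the germline, from the soma or from both.

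RNA of whole pupae was compared at 48 hour after puparium formation (APF) in 7 direct comparisons with 4 arrays each, 28 arrays in all. The comparisons are females with males of the wild type strains Canton S (CS) and Berlin, female with male *tud* progeny, and CS animals with 4 mutant genotypes. The *tud* progeny are offspring of *tud* mutant mothers and lack a germline, and they carry a paternal X chromosome with a GFP marker if female. XX *tra* pseudomales (*tra* over a deficiency) and XX *dsxD* pseudomales (*dsxD* over the null *dsx* M+R15) make the male form of DSX and were set against CS females. XX and XY *dsx* nulls (*dsx* D+R3 over *dsx* M+R15) make no DSX and were set against CS females and CS males, respectively. The mutant XX animals also carry the GFP X chromosome and none of the mutants was compared with siblings, so that genotype and strain background cannot be told apart. Values are log2 ratios of the first genotype over the second genotype, and a ratio below 0 means a higher level in males, in pseudomales or in *dsx* nulls. This direction is not stated in the labels and was read from the signs of transcripts with known bias. In whole animals, fewer cells of a type and less RNA per cell cannot be told apart.

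A single array held values for between 4783 and 12023 elements. Arrays of a comparison correlated least in *tud* progeny, with a lowest Pearson correlation across elements of 0.283, and in *tra* pseudomales, with 0.268, and in both the correlation was higher between arrays of the same dye orientation than of opposite orientation. One array stood apart from its label. On replicate 4 of the XX *dsx* null comparison, *roX1*, a noncoding RNA of the male dosage compensation complex, had a log2 ratio of -4.41, compared to -0.23 on replicate 3, the only other array of that comparison with a value. On the same array 4 of the 9 defining genes of the male germline had a value, all below 0, among them *beta-Tubulin at 85D*, the testis form of beta tubulin, at -4.37, and *Male-specific transcript 77F* at -3.73. Replicates 1, 2 and 3 had values for 0, 1 and 1 of the 9, and *Male-specific RNA 87F* was at -1.96 on replicate 2. Values without replicate 4 are therefore given beside the means, ranks and counts of calls of *CG8086*, *CG14995* and the male germline list in that comparison. The element of *CG8086* had no value on that array.

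Both genes were expressed at a higher level in males than in females of both wild type strains, on every array with a value. For *CG8086*, the log2 ratios in CS were -2.51, -1.83, -2.42 and -1.85, and those of the 3 Berlin arrays with a value were -2.22, -2.30 and -1.86. The mean over both strains was -2.14 ± 0.29 (SD, n = 7), or 4.41-fold higher in males. The arrays of the 2 strains overlapped. For DAC024G24 of *CG14995*, the values were -2.04, -1.23, -1.77 and -1.59 in CS and -2.69, -2.08, -1.84 and -1.87 in Berlin, with a mean of -1.89 ± 0.42 (SD, n = 8). The other element of *CG14995*, DAC008H15, had values of -2.55, -2.15, -1.52 and -2.21 in CS and -3.44, -2.94, -2.29 and -2.36 in Berlin, with a mean of -2.43 ± 0.57 (SD, n = 8), or 5.40-fold higher in males. Both elements of *CG14995* tended to lower ratios in Berlin, with overlap between the strains. The choice of these genes used the wild type sex difference, in which 73.1% of all elements were called (*q* below 0.15) and 26.9% with a higher level in males, so these values are a description.

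**Figure D1:**
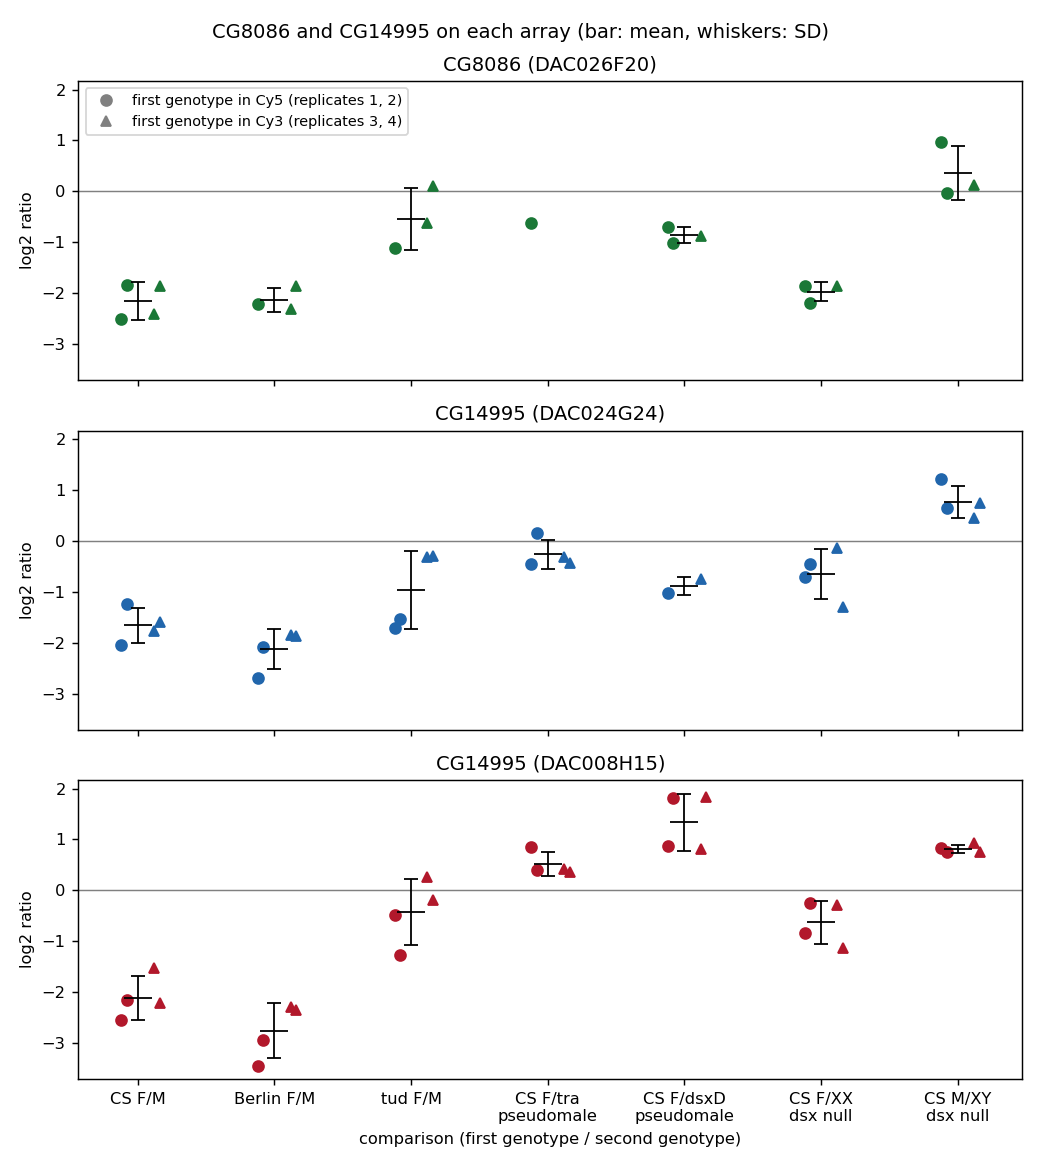
Log2 ratio of each array (vertical axis) in the 7 comparisons (horizontal axis) for the element of *CG8086* and both elements of *CG14995*. Circles are arrays with the first genotype in Cy5, triangles those with it in Cy3, and bars and whiskers are means and SD. All 3 elements lie below -1 on every wild type array, and DAC008H15 alone lies above 0 in both pseudomale comparisons.

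Whether the size of the sex difference varied between strains was not itself a criterion of the choice and was tested. However, the same arrays, pooled over both strains, were used to choose *CG8086* and DAC024G24. That choice favours elements with little spread between strains, so nothing is read from the lack of a call for these elements. None of the 3 elements was called in the difference between CS and Berlin, in which 3.39% of all elements were called by limma. None had an unadjusted p below 0.05 with the moderated or with the unmoderated test. In contrast, 1 of 3, DAC008H15, did with a dye term, in a fit over all arrays, with centered arrays and with the replicate block. The same held without CS replicate 1, Berlin replicate 3 or Berlin replicate 4, each left out alone. DAC008H15 was not called in any of these settings. For *CG8086* the difference was -0.03 (95% confidence interval -0.59 to 0.54). For DAC008H15 it was 0.65 (-0.04 to 1.34; limma *q* = 0.302) and for DAC024G24 0.46 (-0.10 to 1.03; limma *q* = 0.349). With the arrays scaled to one spread, both differences were close to 0, at -0.00855 and -0.0643.

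Relative to other transcripts of the male germline list, the male bias of these genes was moderate. Of the other 668 elements of the list, 641 were tested in the wild type and 606 were called with a higher level in males, with a median log2 ratio of -1.52, compared to 0.12 over all 9901 elements tested. The study chose this list from its time course arrays, which were not analysed here. *CG8086* ranked 250 of 644 from the most male-biased, DAC008H15 215 and DAC024G24 274. The 20 testis and sperm genes followed here had means between -6.38 and -0.49, on both sides of those of *CG8086* and *CG14995*. *Male-specific RNA 98Ca*, a spermatid transcript, had a mean of -6.38, and *Androcam*, a testis-specific calmodulin relative, a mean of -4.94. All 20 were called with higher levels in males, with a median of -3.70.

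In *tud* progeny, which have no germline, the sex difference was smaller for all 3 elements than in the wild type. For *CG8086*, the 3 arrays with a value had log2 ratios of -1.12, -0.62 and 0.10, with a mean of -0.55 ± 0.61 (SD). For DAC024G24 the values were -1.71, -1.54, -0.32 and -0.30 (mean -0.97 ± 0.76, SD, n = 4). They fell into the 2 dye orientations, with means of -1.62 for female RNA in Cy5 and -0.31 for female RNA in Cy3. For DAC008H15 the values were -0.49, -1.27, 0.26 and -0.19 (mean -0.42 ± 0.65, SD, n = 4). The dye orientations differed in the same direction for the other elements. For DAC008H15 the means were -0.88 for female RNA in Cy5 and 0.04 for female RNA in Cy3. For *CG8086* they were -1.12, from 1 array, and -0.26. The part of the dye in the *tud* values was not tested. No array of *CG8086* or DAC008H15 reached the range of the wild type arrays, while the lower arrays of DAC024G24 lay within it. A male bias in *tud* progeny was required for the study's *dsx* set, and 15.2% of all elements were called here, so the *tud* values of *CG8086* and DAC024G24 have no test.

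The difference between wild type and *tud* progeny was -1.60 for *CG8086* (95% confidence interval -2.15 to -1.04), a male bias 3.02-fold larger in animals with a germline. It was -2.01 for DAC008H15 (-2.70 to -1.32). For DAC024G24 it was -0.92 (-1.56 to -0.28), and -0.53 with the arrays scaled to one spread. Both sex differences were used in the choice of these genes. The choice on a male bias in the wild type favours a difference in this direction and the required male bias in *tud* progeny works against it, so the estimates are a description without a test. Of all elements, 11.2% were called in this direction and 31.2% in either, and nothing is read from this for *CG8086* and *CG14995*. The list itself was chosen by the study from time course arrays of wild type and *tud* animals. Among the other elements of the male germline list, 258 of the 337 tested were called in this direction, with a median of -0.84. The ranks of *CG8086* and DAC008H15 were 56 and 28 of 340 from the largest difference, and that of DAC024G24 was 153. In *tud* progeny themselves the list had a median of -0.03 over 344 elements tested, with 20 called below 0 and 20 above. Only elements bright enough in these animals are among them, since 324 of the 668 had a value on fewer than 2 *tud* arrays.

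The direction of the effect of *dsx* loss differed between the sexes, which is the pattern by which these genes were chosen, and the values are given without a test. In XX animals, levels were higher without DSX than in CS females. For *CG8086*, the log2 ratios of CS females over XX *dsx* nulls were -1.86, -2.19 and -1.86, with a mean of -1.97 ± 0.19 (SD, n = 3), or 3.92-fold higher in the nulls. They lie within the range of the CS female over male ratios, between -2.51 and -1.83. On replicate 1, with -1.86 for *CG8086*, none of the 9 defining genes of the male germline had a value, and on replicate 3, also with -1.86, the 1 with a value (*Male-specific RNA 84Db*) was at 0.02. For DAC024G24 the values were -0.70, -0.46, -0.14 and -1.29 (mean -0.65 ± 0.49, SD, n = 4), and for DAC008H15 -0.85, -0.25, -0.29 and -1.12 (mean -0.63 ± 0.43, SD, n = 4). In both, the lowest value is that of replicate 4, the array with signal of *roX1*, and its part in the result was not tested. Without replicate 4 the means were -0.43 and -0.46, and all 3 remaining arrays were below 0 for both elements. The mean of *CG8086* does not include that array.

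In XY animals, levels of *CG14995* were lower without DSX than in CS males. The log2 ratios of CS males over XY *dsx* nulls were 1.22, 0.65, 0.46 and 0.74 for DAC024G24 (mean 0.76 ± 0.32, SD, n = 4) and 0.83, 0.75, 0.93 and 0.75 for DAC008H15 (mean 0.81 ± 0.08, SD, n = 4), or 1.76-fold for the latter. The *CG8086* element was less uniform, with values of 0.97, -0.02 and 0.13 and a mean of 0.36 ± 0.54 (SD, n = 3), and rested on replicate 1, without which the mean was 0.05. The opposite effect of *dsx* loss in *CG8086* was thus large and uniform in XX animals but small in XY animals. In *CG14995* the means without replicate 4 of the XX comparison were nearer to 0 in XX than in XY animals. The percentages of all elements called were 40.4% in the XX and 80.9% in the XY comparison.

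**Figure D2:**
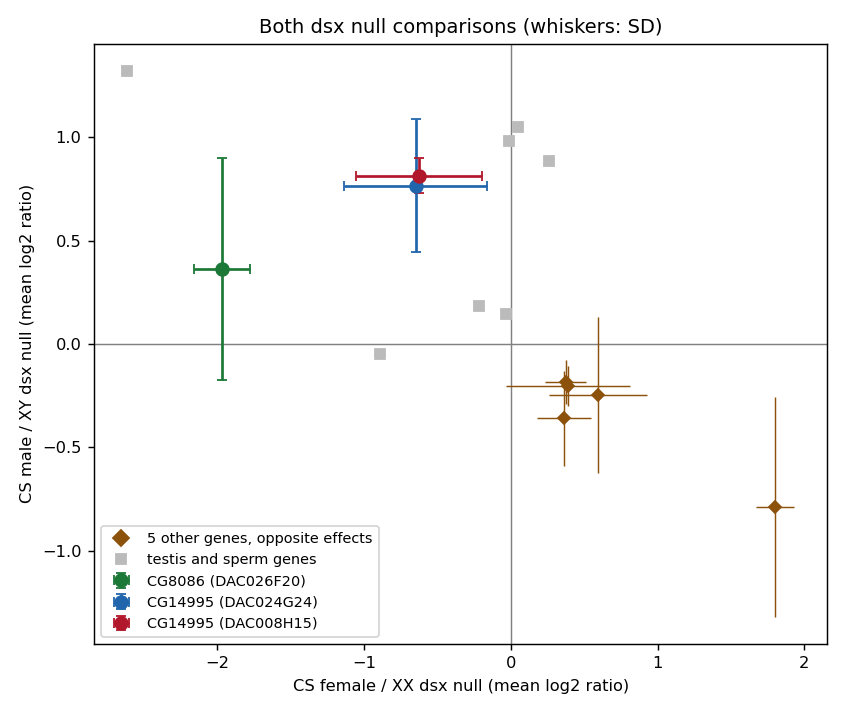
Mean log2 ratio of CS males over XY *dsx* nulls (vertical axis) against that of CS females over XX *dsx* nulls (horizontal axis). Circles are the 3 elements of *CG8086* and *CG14995*, diamonds the 5 other genes with opposite effects and grey squares the testis and sperm genes with values on at least 2 arrays of both, with whiskers for SD where drawn. *CG8086* (-1.97, 0.36) and *CG14995* lie in the upper left, the 5 other genes in the lower right.

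The other transcripts of the male germline list mostly had lower levels in XY *dsx* nulls, and had no common direction in XX *dsx* nulls. In the XY comparison 600 of 662 other list elements tested were called with a higher level in CS males, with a median of 0.84, which places *CG14995* (ranks 344 and 362 of 665 from the highest) near the middle of the list and *CG8086* (523) in its lower part. In the XX comparison 55 of 322 list elements were called below 0 and 61 above, with a median of -0.01. *CG8086* had the second lowest mean of 325 list elements and the *CG14995* elements ranked 17 and 19. The lowest was that of *Male-specific RNA 87F* (-2.61, on replicates 2 and 4 only). Without replicate 4, *CG8086* had the lowest mean of 291 list elements tested and the *CG14995* elements ranked 23 and 25, while 37 of the other 288 were called below 0 and 40 above, with a median of 0.02. Of the list elements with values in both comparisons, 30 of 325 (9.23%) were called below 0 in XX and above 0 in XY, compared to 1.34% of all elements. Without replicate 4 it was 21 of 291 (7.22%), compared to 0.980% of all elements. Both counts include the 3 elements described here, whose genes were chosen for this pattern, and nothing is read from that. Over all elements, 1389 of 6867 were called below 0 in XX and 2938 of 8583 above 0 in XY. The list thus had a larger share than all elements in the XY comparison, but not below 0 in the XX comparison.

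Among the testis and sperm genes, 7 of 20 had values on at least 2 XX *dsx* null arrays. Apart from *Male-specific RNA 87F*, the element of *orb2*, which encodes a translational regulator with a role in spermatogenesis, was called below 0 (mean -0.90 ± 0.14, SD, n = 4). *Tektin C*, *boule* and the 2 sperm-specific dynein chains tested had means between -0.03 and 0.26 and were not called. *Tektin A* (-0.22) was not called either. Without replicate 4, 5 of the 20 had values on at least 2 arrays, and of these *orb2* alone was called, with a mean of -0.94 ± 0.12 (SD, n = 3). In XY animals, 19 of the 20 were called with a higher level in CS males, and the exception was *orb2* (-0.05).

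The 5 other genes that the study names for opposite effects in XX and XY animals had the reverse pattern, with lower levels in XX and higher levels in XY *dsx* nulls. For *abdominal A*, a homeotic gene, the means were 0.36 ± 0.18 (SD, n = 3) in XX and -0.36 ± 0.23 (SD, n = 3) in XY animals. *CG1441* had the largest values, with means of 1.80 (n = 3) and -0.79 (n = 2). *LpR1*, which encodes a lipophorin receptor, had means of 0.59 and -0.25, *CG10802* 0.37 and -0.18, and *CG9485* 0.39 and -0.20. The XY mean of *LpR1* was within its spread (SD 0.38, n = 4), with 2 arrays above 0. In the wild type these 5 had means between 0.14 and 1.02, above 0 in contrast to *CG8086* and *CG14995*. The mean of *CG1441* is from CS alone (n = 3), and *LpR1* was below 0 on 2 of 4 CS arrays.

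The ratio of XX to XY animals in the absence of DSX can be estimated from 3 comparisons, as the CS sex difference less the XX effect plus the XY effect. The estimate was 0.18 ± 0.38 (SE) for *CG8086*, against a CS sex difference of -2.15, and -0.24 ± 0.34 (SE) for DAC024G24, against -1.66. For DAC008H15 it was -0.67 ± 0.31 (SE), against -2.11. The choice of transcripts with opposite effects draws these estimates to 0, and they have no test. Without replicate 4 of the XX comparison they were -0.46 for DAC024G24 and -0.83 for DAC008H15.

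The *tra* pseudomale comparison was not required for the choice of these genes. For *CG8086* a single array had a value, -0.62, and no test was possible. For DAC024G24 the values were -0.45, 0.16, -0.32 and -0.44 (mean -0.26 ± 0.29, SD, n = 4), and it was not called (95% confidence interval -0.63 to 0.10; limma *q* = 0.208). For DAC008H15 they were 0.86, 0.40, 0.42 and 0.37 (mean 0.51 ± 0.23, SD, n = 4), higher in CS females on all 4 arrays (95% confidence interval 0.17 to 0.85; limma *q* = 0.0545). Thus 1 of the 2 elements tested was called, in the direction opposite to its wild type male bias. Of all elements, 24.7% were called in this comparison, 13.3% above 0. Without replicate 1, the highest of the 4, the mean was 0.40 and *q* was 0.162. In contrast, DAC024G24 passed the threshold without replicate 2 (-0.41; limma *q* = 0.121) and with a dye term (limma *q* = 0.0809).

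In the *dsxD* pseudomale comparison the 2 elements of *CG14995* had opposite signs. *CG8086* was higher in pseudomales than in CS females, with log2 ratios of -0.70, -1.01 and -0.88 (mean -0.86 ± 0.16, SD, n = 3), or 1.82-fold. DAC024G24 had values on 2 arrays, -1.02 and -0.75. DAC008H15 had values of 0.87, 1.82, 0.82 and 1.83 (mean 1.33 ± 0.57, SD, n = 4), or 2.52-fold higher in CS females. All arrays of *CG8086* and DAC024G24 were below 0 and all of DAC008H15 above it. Of the 9 defining genes of the male germline, 6 had a value on replicate 1 of this comparison, from -2.51 (*Male-specific RNA 87F*) to 0.44, and 4 on replicate 2, from -1.73 (the same gene) to 1.11. The 1 value on replicate 3 was 0.41 and the 1 value on replicate 4 was -0.07. In this comparison, in which 26.3% of all elements were called, the study required a higher level in pseudomales for *CG8086* and DAC024G24, and DAC008H15 is the element of *CG14995* outside the required set.

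The pseudomales were compared with each other through the CS females that both were set against. Whether the same female RNA served for both is not given in the sources used here. DAC008H15 was further above 0 for *dsxD* than for *tra*, with a difference (*tra* minus *dsxD*) of -0.82 (95% confidence interval -1.43 to -0.21; limma *q* = 0.119). It was called, as were 9.63% of all elements and 4.88% in this direction, but not with the Benjamini-Hochberg adjustment (adjusted p = 0.163), nor without *tra* replicates 2, 3 or 4 or *dsxD* replicates 2 or 4, each left out alone (limma *q* from 0.185 to 0.231). DAC024G24 differed by 0.62 (0.04 to 1.21), without a test, as its *dsxD* values were used in the choice. *CG8086* could not be tested.

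XX animals with the male form of DSX were then compared with XX animals without DSX. *CG8086* was higher in the XX *dsx* nulls than in *dsxD* pseudomales, with a difference (*dsxD* minus null) of 1.11 (95% confidence interval 0.65 to 1.57), or 2.15-fold. All 3 null arrays, between -2.19 and -1.86, lay below the 3 *dsxD* arrays, between -1.01 and -0.70. DAC008H15 differed by 1.96 (1.30 to 2.63), or 3.89-fold, without overlap of the 2 sets of 4 arrays. DAC024G24, with 2 *dsxD* arrays within the range of the nulls, differed by -0.24 (-0.96 to 0.49). Without replicate 4 of the nulls the difference was 1.80 for DAC008H15 and -0.45 for DAC024G24, and *CG8086* has no value there. Both *dsxD* arrays of DAC024G24 (-1.02 and -0.75) then lay below all remaining null arrays (-0.70, -0.46 and -0.14). The low values in XX *dsx* nulls are part of the pattern by which the genes were chosen and favour a difference above 0, and the *dsxD* values of *CG8086* and DAC024G24 were used as well, so these differences are given without a test. Of all elements, 0.781% were called above 0 and 2.36% in either direction, and nothing is read from this for *CG8086* and *CG14995*.

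**Figure D3:**
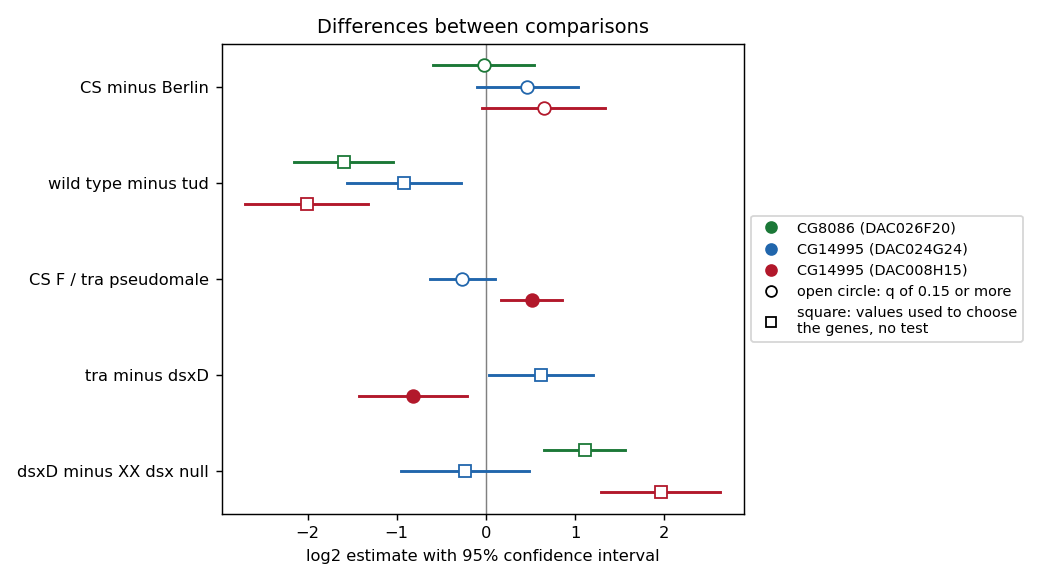
Estimates (points) and 95% confidence intervals (lines) on the log2 scale (horizontal axis) for 5 comparisons (vertical axis), by element, with open circles for *q* values of 0.15 or more and squares where values used in the choice of the genes enter and no test is given. All 3 elements lie below 0 for wild type minus *tud*, and for *dsxD* minus XX *dsx* null *CG8086* (1.11) and DAC008H15 (1.96) lie above 0 whereas DAC024G24 (-0.24) does not. CS and Berlin values entered the choice of *CG8086* and DAC024G24 pooled over strains, and CS minus Berlin is drawn with circles.

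The 2 elements of *CG14995* could be compared on the same array. On the 8 wild type arrays DAC008H15 was below DAC024G24 by 0.45 in CS (mean difference -0.45 ± 0.50, SD, n = 4) and by 0.64 in Berlin (-0.64 ± 0.20, SD, n = 4), with 1 CS array in the other direction. In the *dsx* null comparisons they differed by less than the spread between arrays, with mean differences of 0.02 ± 0.20 (SD, n = 4) in XX and 0.05 ± 0.35 (SD, n = 4) in XY animals. In *tra* pseudomales DAC008H15 was above DAC024G24 on all 4 arrays, by 1.31, 0.24, 0.74 and 0.81 (mean 0.78 ± 0.44, SD), and in *dsxD* pseudomales by 2.83 and 2.58 on the 2 arrays with both values. In *tud* progeny it was above on all 4 arrays (mean 0.55 ± 0.49, SD). The difference in *tra* pseudomales was larger than in the wild type by 1.32 (n = 4 and 8) and larger than in XX *dsx* nulls by 0.76 (n = 4 and 4). Without replicate 4 of the nulls the latter was 0.80. Against *tud* progeny the difference in *tra* pseudomales was larger by 0.23, which did not exceed the spread between arrays (n = 4 and 4). The wild type, *tud* and XX *dsx* null values of DAC024G24 were used in the choice of the genes. These contrasts were also chosen after the values were seen, so they are given without a test. Which of the 7 transcripts of *CG14995*, or of the overlapping *CG14990*, each element detects was not tested, as the oligonucleotide sequences were not used here.

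**Figure D4:**
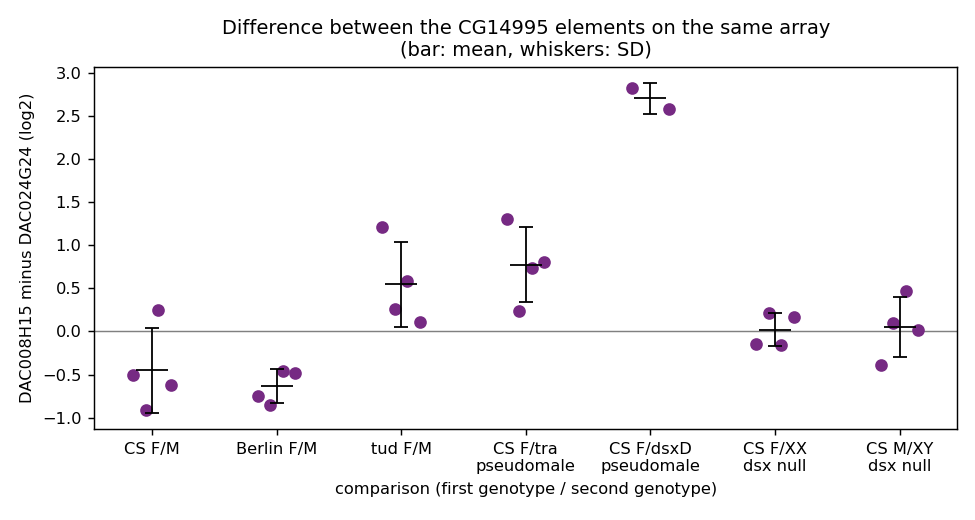
Log2 ratio of DAC008H15 minus that of DAC024G24 on each array (vertical axis), both elements of *CG14995*, in the 7 comparisons (horizontal axis), with points for arrays and bars and whiskers for means and SD. The arrays of *tra* (mean 0.78) and *dsxD* pseudomales and of *tud* progeny (mean 0.55) lie above 0, those of the *dsx* nulls around 0 and 7 of 8 wild type arrays below it.

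The elements with the profile most like those of *CG8086* and *CG14995* over the comparison means were all in the male germline list. Likeness was measured as the root mean square difference over the means of at least 2 arrays, among the named elements with the same comparisons. Named elements are the 2357 that the study's lists name, the male germline list among them. A place in that list is therefore not read as a result. For *CG8086*, over 6 comparisons and 1534 candidates, the nearest were *orb2* (0.54), *CG32598* (0.56) and DAC024G24 of *CG14995* (0.62). For DAC008H15, over 7 comparisons and 1487 candidates, they were *CG8368* (0.49), *CG7441* (0.49) and *chromosome bows* (0.63), which encodes a microtubule-associated protein. In the *dsxD* comparison, which entered the measure of likeness, these had means of 0.27, 0.99 and 0.01, respectively. For DAC024G24 they were *chromosome bows* (0.48), *CG8257* (0.49) and *tomboy40* (0.50), which encodes a relative of the mitochondrial import channel. The 2 elements of *CG14995* were 0.96 apart, further than DAC024G24 was from the element of *CG8086*.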

How the data were processed

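RNA from about 30 whole pupae was hybridized, 2 genotypes to an array. The log2 ratios as deposited by the authors had been filtered for elements bright in at least 1 channel and normalized within arrays by global loess in LIMMA (version not given in the sources used here), with dye swaps already turned. No source used here gives a background correction or a scaling across arrays, and neither was added. Control elements (32) were left out. Direction was settled by sign, since between 95.8% and 100% of the elements listed with a known bias or *dsx* effect had the listed sign in it. The *tra* comparison was not checked against a list. Its direction rests on the *tra* transcript, which was above 0 on all 4 arrays (mean 0.90). In *tud* replicates 2 and 4 the labels' fields give different sexes for channel 2, and the source name was used.

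Elements with values on at least 2 of 4 arrays (4 of 8 for CS and Berlin together) were tested with limma 3.58.1 in R 4.3.3, two-sided, against 0 or between comparisons. Storey's *q* values were computed over all elements tested, with lambda from 0.05 to 0.95 in steps of 0.05, and *q* below 0.15 was called, the study's threshold. The tests were checked on simulated data. Replicates are separate arrays, and nothing in the labels says that they stem from separate collections, so *q* values measure the spread between arrays. The number of arrays limits the precision. Same-numbered arrays deviated together, with correlations from 0.123 to 0.494 for the wild type strains and *tud* progeny and from 0.110 to 0.394 for *dsxD* pseudomales and XX *dsx* nulls, and so were treated as paired in an alternative with a replicate block. The number also carries the dye orientation. Other-numbered arrays of the same orientation correlated from 0.234 to 0.492 for CS and *tud* and from 0.145 to 0.358 for Berlin and *tud*. For *dsxD* pseudomales and XX *dsx* nulls these correlations were from -0.116 to 0.153. For CS and *tud* the mean was 0.306 at the same number and 0.351 at other numbers of the same orientation. A pairing by number is thus not shown for CS and *tud* beyond the shared dye orientation.

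The genes, lists and tests were chosen with earlier results of these data known. Named besides both genes were the 5 other genes with opposite *dsx* null effects, 20 testis and sperm genes of the male germline list, and for each element the 3 named elements with the most similar means. Alternatives were other minimum numbers of arrays, Benjamini-Hochberg adjustment, centering, scaling, a dye term, an unmoderated t-test, a fit over all arrays, a one-sided test, the replicate block and leaving out each array. Gene names and neighbours are from RefSeq (Release 6 plus ISO1 MT). Since the oligonucleotides were designed on an earlier release, no coordinates are given. Figures were drawn with matplotlib 3.10.9. The time course arrays were not analysed here.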

Additional observations from a re-analysis of the deposited data

Results flagged for a closer look

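One array value lay far from the others of its group. With *tra* pseudomales, DAC008H15 of *CG14995* had a log2 ratio of 0.86 on replicate 1, above the other 3 arrays (0.37 to 0.42). Of 17 groups of 4 to 8 values examined, chance flags about 1 in 20.

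The sex difference differed between wild type and *tud* progeny by -1.60 for *CG8086*, by -2.01 for DAC008H15 and by -0.92 for DAC024G24. The pseudomale comparisons differed by -0.82 (*tra* minus *dsxD*) for DAC008H15. Between *dsxD* pseudomales and XX *dsx* nulls the difference was 1.11 for *CG8086* and 1.96 for DAC008H15. The genes were chosen on wild type, *tud* and XX *dsx* null values, so nothing is read from the first and last of these differences.

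Every XX *dsx* null array and every XY *dsx* null array had opposite signs for both elements of *CG14995*, with means of -0.63 and 0.81 for DAC008H15 and of -0.65 and 0.76 for DAC024G24. Without replicate 4 of the XX comparison its means were -0.46 and -0.43, respectively. This difference was not tested, because the gene was chosen for it.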

How the results depend on the processing

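Over 407 combinations of a value or test of these genes with an alternative, 381 kept their direction, their side of the threshold and, for values without a test, their size within the SD. The side of the threshold was also counted for differences given above without a test, and nothing is read from it there. In *tra* pseudomales, DAC008H15 (0.51) was not called one-sided in the wild type direction, from which it points away, and DAC024G24 (-0.26) was called with a dye term. Without single *tra* replicates, the means were 0.40 to 0.56 and -0.41 to -0.20. The difference between *tra* and *dsxD* of DAC008H15 (-0.82) was not called with the Benjamini-Hochberg adjustment or the unmoderated test, and left-out arrays gave -0.99 to -0.66. That of DAC024G24 (0.62), which has no test, was 0.480 to 0.684 with left-out arrays. The differences of 1.11 (*CG8086*) and 1.96 (DAC008H15) between *dsxD* and XX *dsx* nulls have no test. With left-out arrays they were 0.998 to 1.18 and 1.80 to 2.13, respectively. Scaling gave -0.53 for wild type minus *tud* of DAC024G24. The difference of *CG8086* between CS and Berlin turned to 0.0772 with centered arrays, to 0.0948 with the replicate block and to between -0.13 and 0.11 without single arrays. Scaling turned those of *CG14995* to -0.00855 and -0.0643. The estimate for *CG8086* without DSX was -0.13 to 0.37 without single arrays, and negative only without XY replicate 1. The differences between the *CG14995* elements in *tra* pseudomales stayed between 1.14 and 1.499 against the wild type. They stayed between 0.58 and 0.93 against XX *dsx* nulls and between 0.0515 and 0.45 against *tud* progeny. The cause of these changes was not tested.

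The replicate block changed no call of these genes. For wild type minus *tud* it gave -1.72 for *CG8086*, and for *dsxD* minus XX *dsx* null 1.96 for DAC008H15. CS and Berlin (lowest same-numbered correlation 0.0296) and *tra* and *dsxD* (0.071) share only a number, and the block moved the calls of the latter to 1223.

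Counts of calls over all elements moved by more than 1.5 times as follows. The Benjamini-Hochberg adjustment gave 4456 for the wild type (7237), 643 for *tud* (1192), 1080 for *tra* (1876), 151 for CS minus Berlin (276) and 1238 for wild type minus *tud* (2247). The dye term gave 2826 for *tud*, 3685 for *tra*, 560 for CS minus Berlin, 1438 for *tra* minus *dsxD* (687) and 218 for *dsxD* minus XX *dsx* null (142). The unmoderated test gave 0 for *tud* progeny, where limma called 1192, 868 for *tra*, 1307 for *dsxD* (2194), 36 for CS minus Berlin and 31 for *dsxD* minus XX *dsx* null. The one-sided test gave 674 for *tra*. For CS minus Berlin, at least 3 arrays gave 139, no minimum 719, scaling 11 and the fit over all arrays 786, which gave 1045 for *tra* minus *dsxD*. Leaving out single arrays gave 272 to 663 for *tud*, 739 to 1419 for *tra*, 1434 to 2299 for *dsxD*, 12 to 466 for CS minus Berlin, 1408 to 2450 for wild type minus *tud*, 421 to 715 for *tra* minus *dsxD* and 73 to 157 for *dsxD* minus XX *dsx* null.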
